A study of Mus musculus with 16 samples.

Results

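A set of 10 genes of fibroblast growth factor (FGF) signalling in the hair follicle were followed in whole back skin and in sorted follicle stem cells of control mice and of mice labelled GRK2 eKO. They were Fgfbp1, the ligand genes Fgf5, Fgf7, Fgf10 and Fgf22, the receptor genes Fgfr1, Fgfr2 and Fgfr3, and the feedback genes Spry2 and Dusp6. These 10 genes, of 55305 gene rows shared by both tables, were taken by symbol. Fgfbp1 was included because it had the smallest p of all genes tested in the stem cells, so its stem cell values are given below as a description without a test. The other 9 were listed for their place in the pathway, but with earlier results of these data known, so their choice was not blind.

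FGFs are secreted proteins that are held by heparan sulphate in the matrix and bind receptor tyrosine kinases on neighbouring cells. The receptors signal through adaptors to the MAP kinase cascade, which turns on its own inhibitors, among them the Sprouty proteins and the ERK phosphatase Dusp6. In the hair follicle, FGF7 and FGF10 from the dermal papilla act on the epithelial form of Fgfr2, and FGF5 brings hair growth to its end. Fgfbp1 is a secreted carrier that releases FGFs from the matrix.

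All mice were C57BL/6. Skin libraries were prepared from total RNA of back skin at 8 months of age, with 5 control and 5 GRK2 eKO libraries. Hair follicle stem cells (HFSC) were sorted as CD34+ α6-integrin+ bulge cells, with 3 control and 3 GRK2 eKO libraries. Their labels give 18 months, and the design text of the series gives 8 months, so their age is not settled. GRK2 is a kinase that switches off G-protein-coupled receptors. The labels do not spell out eKO, and the promoter or Cre driver, the sex of the animals and any pooling are not given in the sources used here. Where nothing states that the libraries came from separate animals, the p-values measure only the spread between libraries.

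Recovered reads ran from 8.21 to 16.4 M per skin library and from 6.43 to 9.39 M per HFSC library (M, SI prefix mega). Grk2 transcript was 1298 ± 144 (SD, n = 5) in control skin and 1110.4 ± 93.8 (SD, n = 5) in eKO skin, an exact permutation p of 0.0397 (two-sided, smallest possible 0.00794). In HFSC it was 135 ± 12.0 (SD, n = 3) in controls and 114 ± 8.68 (SD, n = 3) in eKO, an exact permutation p of 0.2 (two-sided, smallest possible 0.1). Neither difference passed the adjusted threshold (limma adjusted p 0.343 and 0.501), and the labels are therefore checked only weakly by this transcript. The 10 bulge markers summed to 163492 to 167048 in control HFSC and to 145801 to 164788 in eKO HFSC. At a limma adjusted p under 0.05, 2 of the 10 were higher in eKO, Itga6 and Postn, and 1 was lower, Lgr5, beside 19.4% of all genes tested. The 4 Y-linked genes summed to 2340 to 2476 in control HFSC and to 704 to 831 in eKO HFSC, so a difference in the sex of the cells cannot be told apart from genotype there. In skin, 8 libraries summed to between 2297 and 2762, and control replicate 5 and eKO replicate 3 to 1.90 and 0.642.

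The promoters of the 3 genes that were higher in eKO HFSC are printed here because these genes moved in the same direction. Each window runs from 250 bases before to 30 bases after the annotated start, on the gene's strand, from RefSeq on GRCm38.p6. Fgfbp1 lies on the minus strand at chr5:43981770-43982049, Spry2 on the minus strand at chr14:105896790-105897069, and Dusp6 on the plus strand at chr10:99262981-99263260. Capitals mark a match to the letters TATAAA, which begins at base 4 counted from the annotated start of Fgfbp1, inside the transcribed part.
Fgfbp1: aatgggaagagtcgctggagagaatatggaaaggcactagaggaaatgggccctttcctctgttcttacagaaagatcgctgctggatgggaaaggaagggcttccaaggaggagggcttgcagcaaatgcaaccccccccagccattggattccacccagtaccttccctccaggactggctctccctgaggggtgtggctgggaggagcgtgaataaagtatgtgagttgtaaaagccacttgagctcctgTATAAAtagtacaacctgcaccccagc
Spry2: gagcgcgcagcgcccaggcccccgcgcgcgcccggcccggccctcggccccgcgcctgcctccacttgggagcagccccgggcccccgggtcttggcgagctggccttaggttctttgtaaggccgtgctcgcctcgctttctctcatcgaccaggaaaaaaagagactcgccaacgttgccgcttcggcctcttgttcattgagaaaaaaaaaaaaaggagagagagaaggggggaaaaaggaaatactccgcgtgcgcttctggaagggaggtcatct
Dusp6: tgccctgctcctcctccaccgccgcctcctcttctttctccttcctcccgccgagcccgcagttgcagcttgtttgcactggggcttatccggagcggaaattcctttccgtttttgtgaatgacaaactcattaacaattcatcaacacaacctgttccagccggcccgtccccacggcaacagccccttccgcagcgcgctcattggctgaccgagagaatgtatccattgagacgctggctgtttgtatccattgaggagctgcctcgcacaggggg
The 5 motifs searched on both strands were AP-1 (TGANTCA), CRE (TGACGTCA), the ETS core (CCGGAA), the TATA box (TATAAA) and the GC box (GGGCGG). Of the 32851 windows of the same length over all genes, 7.46%, 1.74%, 14.2%, 13.1% and 34.7% held them. The Fgfbp1 window held only the TATAAA letters, downstream of the start, and the Spry2 and Dusp6 windows held none of the 5. The Fgfbp1 window had a GC content of 52.9%, Spry2 62.5% and Dusp6 57.1%, beside a median of 52.5% over all windows.

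In HFSC the inhibitor Spry2 and the phosphatase Dusp6 were higher in eKO libraries, Fgfr2 was lower, and Fgfr1, Fgfr3 and Fgf22 did not pass the test. The carrier Fgfbp1, chosen for its small p in HFSC, was also higher there and is given without a test. In whole skin none of the 9 members with enough reads passed. Values are read counts divided by a size factor for each library (normalised counts), and tests are limma on log2(value + 1) with Benjamini-Hochberg adjustment over all genes tested, at a threshold of 0.05. Of 13784 genes tested in HFSC, 19.4% passed in either direction, 10.7% higher and 8.74% lower. Of 16589 tested in skin, 0.374% passed, 0.229% higher and 0.145% lower. In HFSC 7 of the 10 members were tested, and besides Fgfbp1 2 rose and 1 fell. Because the tissues were normalised separately, levels are compared only within a tissue, and because lengths are not part of the unit, levels are not compared between genes.

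Fgfbp1 stood at 780.9, 847.8 and 841.8 in the 3 control HFSC libraries and at 6260.8, 4782.6 and 5324.0 in the 3 eKO libraries. Every eKO library was above every control library. The means were 824 ± 37.1 (SD, n = 3) and 5456 ± 748 (SD, n = 3), and the log2 difference was 2.72, which is 6.58-fold. The carrier had the smallest p of all genes tested by the choice of the gene, and no test is read from it. In bulk libraries, fewer cells of a type and less RNA per cell cannot be told apart.

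Markers of other cell types moved in the same libraries as Fgfbp1, Spry2, Dusp6 and Fgfr2, and their part in these differences was not tested. Members are counted as higher or lower at a limma adjusted p under 0.05. Of all genes tested in HFSC, 10.7% were higher and 8.74% lower by this rule. Differentiated epidermis markers summed to 2531 to 4360 in control HFSC and to 16698 to 17502 in eKO HFSC, with 5 of 6 tested members higher and Sbsn at 0. Sebaceous gland markers summed to 2972 to 3097 and 12659 to 13360, with 6 of 7 tested members higher. Endothelial markers summed to 14.7 to 44.0 and 1046 to 1270, with 7 of 8 higher. With control sums this low, nearly all of those 8 reached the minimum of 10 for testing only through the eKO libraries. Hair matrix and shaft markers summed to 744 to 875 and 2723 to 2997, with 8 of 10 tested members higher and Krt34 and Tchh at 0. Leukocyte markers summed to 224 to 246 and 846 to 1553, with 1 of 4 tested members higher and 1 lower. Dermal papilla markers summed to 1126 to 1313 and 2048 to 2489, with 3 of 6 tested members higher, 2 lower, and Alx4 and Sox2 at 0. Dermal fibroblast markers summed to 590 to 754 and 571 to 655, with 1 of 4 tested members higher and Lum at 0.

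In skin, Fgfbp1 was 1046.3, 1317.0, 2217.0, 989.5 and 1093.0 in controls 1 to 5 and 1512.2, 2369.7, 1975.8, 2133.5 and 2154.2 in eKO 1 to 5. Control replicate 3 lay among the eKO libraries and the other 4 controls lay below all 5. Its log2 difference of 0.66 (SE 0.21) had a limma adjusted p of 0.200 and an unadjusted p of 0.0108. Sebaceous gland markers summed to 16887 to 65851 in control skin and to 52457 to 89599 in eKO skin. At a limma adjusted p under 0.05, 3 of 8 were higher, beside 0.229% of all genes tested in skin. No member of the other marker lists was called there. The genes with the most similar pattern over the 10 skin libraries were Sptssa (Pearson r 0.949), Ak4 (0.934) and 8030443G20Rik (0.931).

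**Figure D1:**
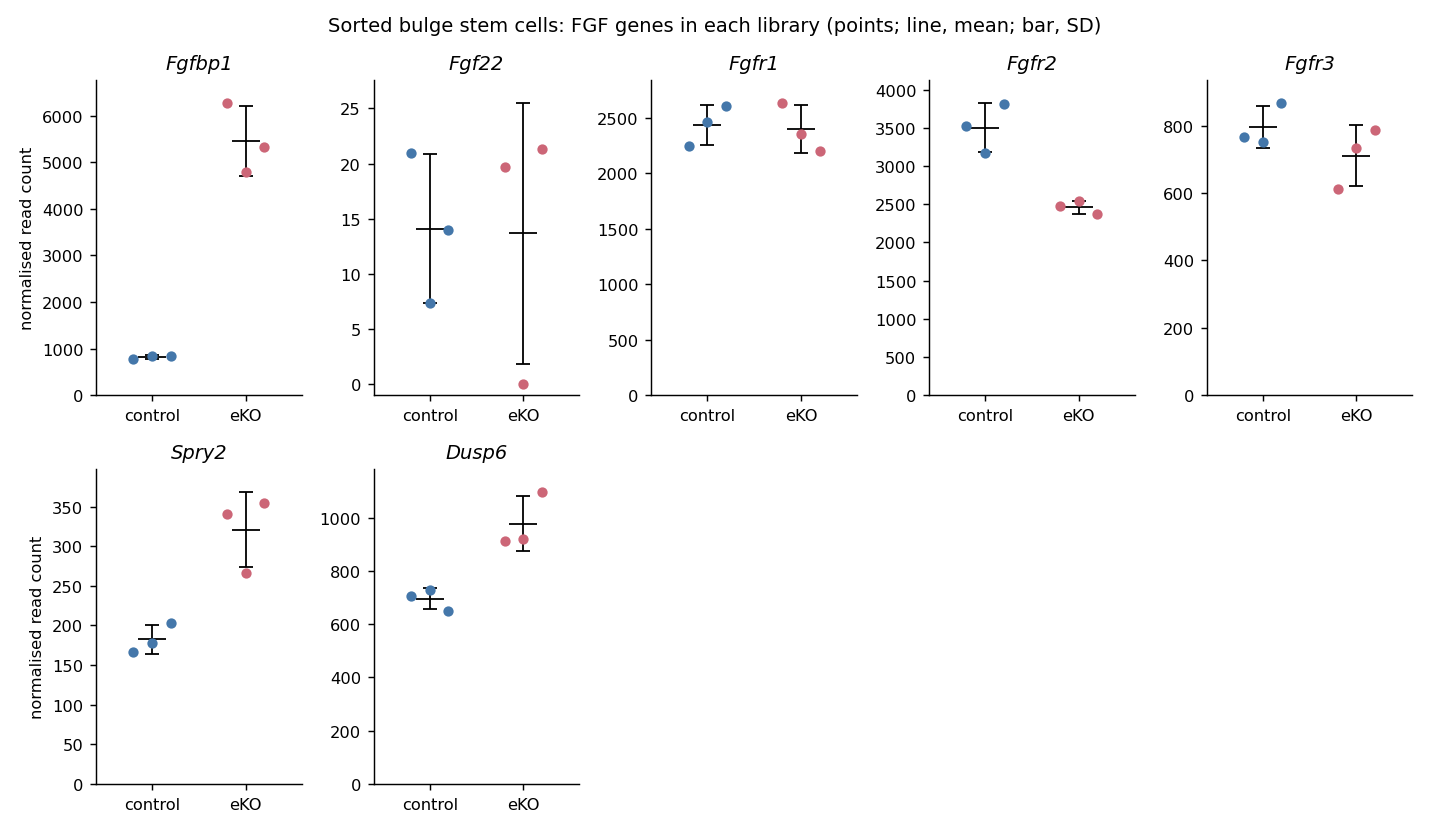
Normalised read counts of 7 FGF genes in sorted HFSC, with one point per library, lines at the group means and bars of 1 SD (3 control and 3 eKO libraries; each panel has its own axis). Fgfbp1, Spry2 and Dusp6 lie higher and Fgfr2 lower in all 3 eKO libraries, and the other groups overlap.

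Few reads of the ligand genes Fgf5, Fgf10 and Fgf22 were counted in the stem cells. Fgf5 had 2 reads in all 6 HFSC libraries together, and Fgf10 was listed at 0 in each of them. Fgf22, a ligand of the epithelial receptors, stood at 20.9, 7.36 and 14.0 in control HFSC and at 19.7, 0 and 21.3 in eKO HFSC. Those groups overlapped, and the log2 difference was -0.86 (SE 1.10, limma adjusted p 0.634).

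In skin, Fgf10 was 143.8, 130.7, 52.2, 87.7 and 126.4 in controls and 148.7, 152.2, 193.9, 209.7 and 98.0 in eKO. In eKO, 4 of the 5 libraries lay above all controls, and replicate 5 lay among them. The log2 difference was 0.60 (SE 0.30, 95% interval -0.05 to 1.26) with a limma adjusted p of 0.396. Fgf22 was 92.7, 121.4, 195.3, 420.1 and 78.9 in controls and 115.8, 107.0, 258.8, 257.4 and 131.6 in eKO, and the groups overlapped (limma adjusted p 0.933). Fgf5 was 6.62, 1.69, 17.8, 225.9 and 25.7 in controls and 5.34, 9.82, 164.4, 64.6 and 2.92 in eKO. This ligand varied by up to 134-fold within controls, and the log2 difference was 0.07 (SE 1.29, 95% interval -2.78 to 2.91, limma adjusted p 0.988).

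Fgf5 went with the genes of the growing hair shaft across the skin libraries, and no other member passed that test. For each skin library, log2(value + 1) was averaged over genes of the hair matrix and shaft to give a hair score. It was 2.24, 4.66, 7.81, 11.85 and 8.47 in controls 1 to 5 and 2.85, 7.49, 10.28, 9.37 and 3.28 in eKO 1 to 5. Over the 10 skin libraries Fgf5 had a Pearson r of 0.897 (permutation p 5.9e-04, adjusted over 9 relations 0.00531) and a Spearman rho of 0.879 (permutation p 0.00167, adjusted 0.0150). Without the 2 libraries farthest from the median score, control replicate 1 and eKO replicate 1, r was 0.958. The scores had a widest gap of 2.83 between 4 lower and 6 higher libraries, and r was 0.970 within the 6 higher ones, a setting chosen after seeing the data. For Fgf22, r was 0.712 (permutation p 0.0220, adjusted 0.0988) and rho was 0.661 (permutation p 0.0435, adjusted 0.196). With the hair score as a covariate, the genotype difference of Fgf5 was 0.27 (SE 0.61). The genes most similar to Fgf5 over the 10 libraries were Capn12 (Pearson r 0.972), Dusp2 (0.969) and Fbp1 (0.964).

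**Figure D2:**
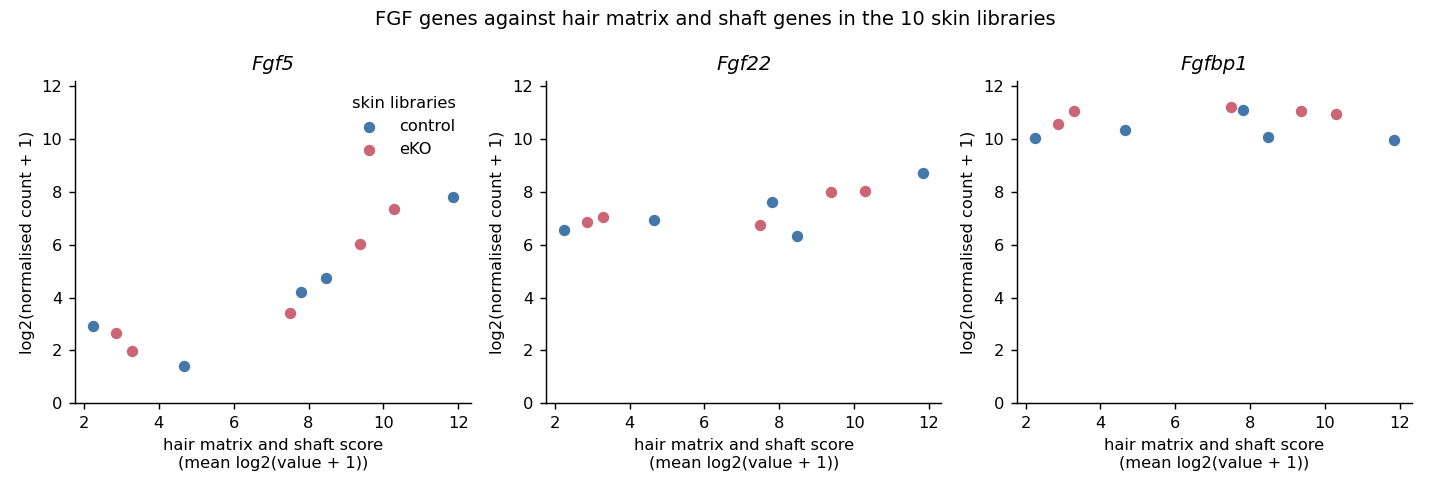
Log2(normalised count + 1) of Fgf5, Fgf22 and Fgfbp1 against the hair matrix and shaft score in the 10 skin libraries (5 control, 5 eKO; one point per library). Fgf5 lies higher at higher scores (r 0.897 over all 10 libraries, 0.970 in the 6 to the right of the gap), and for Fgfbp1 r was 0.05 over all 10 and -0.58 in those 6, neither past the threshold.

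Fgf7, the dermal papilla ligand of Fgfr2, was listed at 0 in all 16 libraries. Whether this came from the counting of reads or from the tissue was not tested. In the GENCODE M21 annotation of the older build GRCm38, used here only for which genes overlap, all exon bases of Fgf7 lie inside the span of Fam227b on the opposite strand. Of protein-coding genes with all exon bases inside the spans of other genes, on either strand, 80.8% (1191 of 1474) were listed at 0 in every skin library. In every HFSC library it was 83.3% (1205 of 1446). Of protein-coding genes with no exon base inside another gene, the shares were 19.6% and 31.5%. B2m, which nearly all cells use, lies inside Patl2 and was also listed at 0 in all 16 libraries. The exons of Fgfbp1, Fgf5, Spry2 and Dusp6 lie in no other gene, and those of Fgf10, Fgfr3, Fgf22, Fgfr1 and Fgfr2 lie there for 16.6%, 13.9%, 3.65%, 3.10% and 3.04% of their bases.

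**Figure D3:**
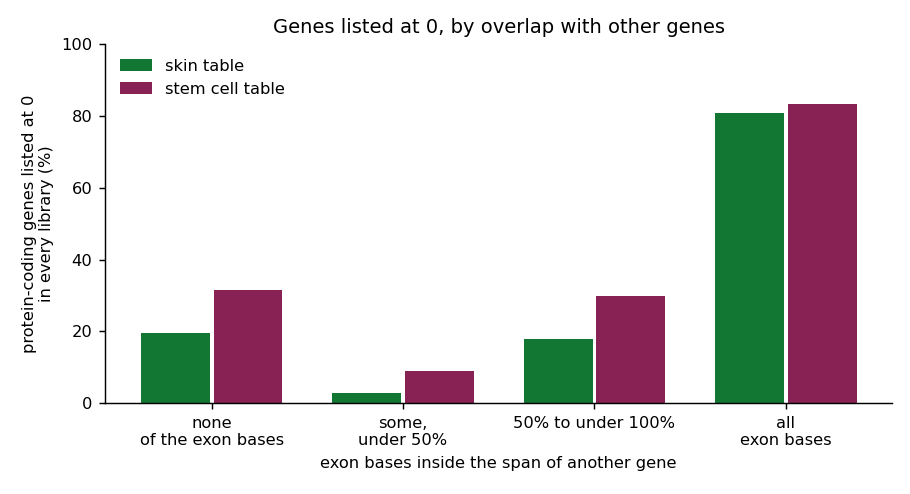
Percentage of protein-coding genes listed at 0 in every library of the skin table and of the HFSC table, by the share of their exon bases inside the span of another gene. The bars for genes with all exon bases inside the spans of other genes, on either strand, where Fgf7 falls, reach 80.8% and 83.3%.

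Among the receptors, only Fgfr2 passed the test, and it did so in HFSC, where markers of other cell types and Y-linked genes also differed by genotype. Fgfr2, the receptor of FGF7 and FGF10 in epithelium, stood at 3519.4, 3167.3 and 3808.3 in control HFSC and at 2470.8, 2536.6 and 2365.8 in eKO HFSC, without overlap. It fell by 0.51 on the log2 scale (SE 0.09, limma adjusted p 0.00195), a change of -29.7% in the mean. Groups without overlap were found for 36.3% of the genes tested in HFSC, with eKO above control for 18.9% and below for 17.4%. In skin it was 4289.2, 3443.4, 4852.7, 4746.0 and 3844.6 in controls and 3241.8, 3871.6, 2672.5, 2023.9 and 3058.0 in eKO, a change of -29.8% in the mean. The highest eKO library lay above the 2 lowest controls, and the log2 difference of -0.53 (SE 0.17) had a limma adjusted p of 0.196. The difference between the tissues in this effect was 0.03 (SE 0.24, limma adjusted p 0.968), which does not show that the effects are equal.

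Fgfr1, a receptor best known in mesenchymal cells, stood at 2239.9, 2457.3 and 2601.5 in control HFSC and at 2627.8, 2351.3 and 2200.7 in eKO HFSC. Its log2 difference was -0.02 (95% interval -0.24 to 0.19, limma adjusted p 0.890) in HFSC and 0.18 (-0.30 to 0.65, limma adjusted p 0.760) in skin, where controls ran from 1158 to 2825 and eKO from 1585 to 2323. Fgfr3 stood at 764.9, 752.1 and 865.8 in control HFSC and at 612.6, 733.3 and 787.2 in eKO HFSC. Its log2 difference was -0.16 (95% interval -0.45 to 0.12, limma adjusted p 0.418) in HFSC and -0.18 (-0.63 to 0.26, limma adjusted p 0.729) in skin. Both receptors overlapped between genotypes in both tissues.

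The feedback genes Spry2 and Dusp6 were higher in the eKO HFSC libraries. Markers of other cell types and Y-linked genes also differed in those libraries, and their part in these differences was not tested. Spry2, an inhibitor of receptor tyrosine kinase signalling, was 166.5, 177.8 and 203.0 in control HFSC and 341.2, 266.4 and 354.7 in eKO HFSC, without overlap. The log2 difference was 0.80 (SE 0.19, limma adjusted p 0.00993), or 1.75-fold. In skin Spry2 ran from 390.2 to 545.6 in controls and from 436.0 to 534.4 in eKO, with a log2 difference of -0.05 (95% interval -0.30 to 0.21, limma adjusted p 0.890). The effects of the tissues differed by 0.85 (SE 0.20, limma adjusted p 0.018, HFSC minus skin), a contrast that 5.62% of 13227 genes passed, 3.44% higher and 2.18% lower. Without control HFSC replicate 1 the limma adjusted p of that difference was 0.0564. By the labels, skin was taken at 8 months and HFSC at 18, so tissue and labelled age cannot be told apart in this contrast.

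Dusp6, the phosphatase that inactivates ERK, was 707.1, 729.0 and 650.9 in control HFSC and 913.6, 920.8 and 1096.1 in eKO HFSC, without overlap. The log2 difference was 0.49 (SE 0.12, limma adjusted p 0.0142), or 1.40-fold. The call was lost without control replicate 1 (limma adjusted p 0.0512), control replicate 3 (0.0678) or eKO replicate 3 (0.0537). In skin it was 527.9, 857.5, 726.8, 868.2 and 498.0 in controls and 1355.5, 727.4, 1575.1, 1023.2 and 915.5 in eKO. In eKO, 4 of the 5 libraries lay above all controls, and the log2 difference of 0.67 (SE 0.23) had a limma adjusted p of 0.228. The tissue difference was -0.18 (SE 0.32, limma adjusted p 0.789).

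**Figure D4:**
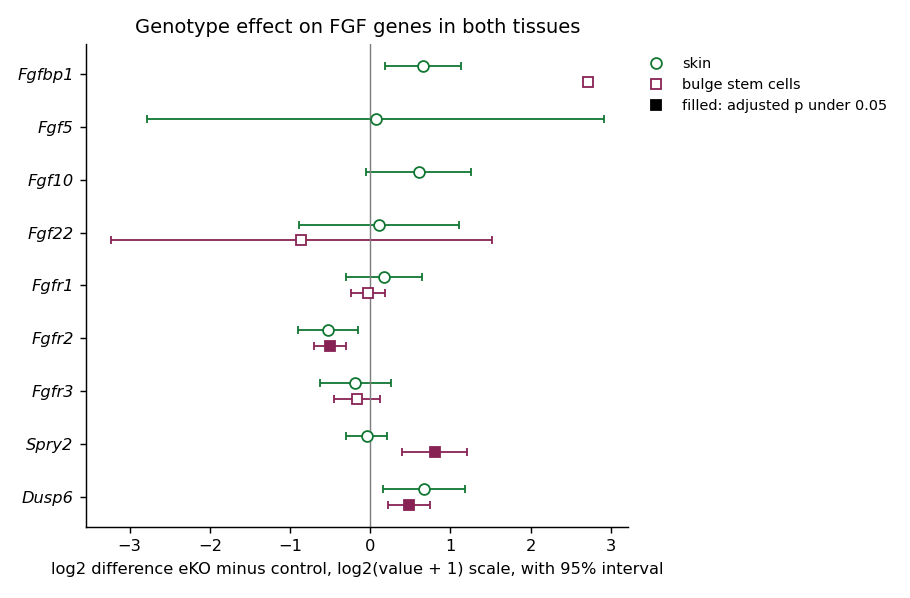
Log2 difference, eKO minus control, of each FGF gene with enough reads, as symbols with 95% intervals (circles, skin, 5 against 5; squares, HFSC, 3 against 3; filled where the adjusted p was under 0.05). Fgfr2, Spry2 and Dusp6 are filled in HFSC only, Fgfbp1 in HFSC is drawn unfilled and without an interval because it was chosen by its HFSC p, and all skin symbols are open.

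For skin as a whole, the count of 0 members passing in limma came with 3 of 9, Fgfbp1, Fgfr2 and Dusp6, at an unadjusted p under 0.05. Of all 16589 genes tested in skin, 2348 had an unadjusted limma p under 0.05. None of the 9 was without overlap, beside 4.18% of the genes tested in skin, with eKO above for 1.74% and below for 2.45%. Neither edgeR nor DESeq2 on recovered reads called a member there. With only the 8 libraries that hold Y-linked reads, the differences of Fgfbp1, Fgfr2 and Dusp6 were 0.61, -0.53 and 0.42. The plot of skin counts shows that most groups overlap, with Fgfbp1, Fgfr2 and Dusp6 the most apart.

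**Figure D5:**
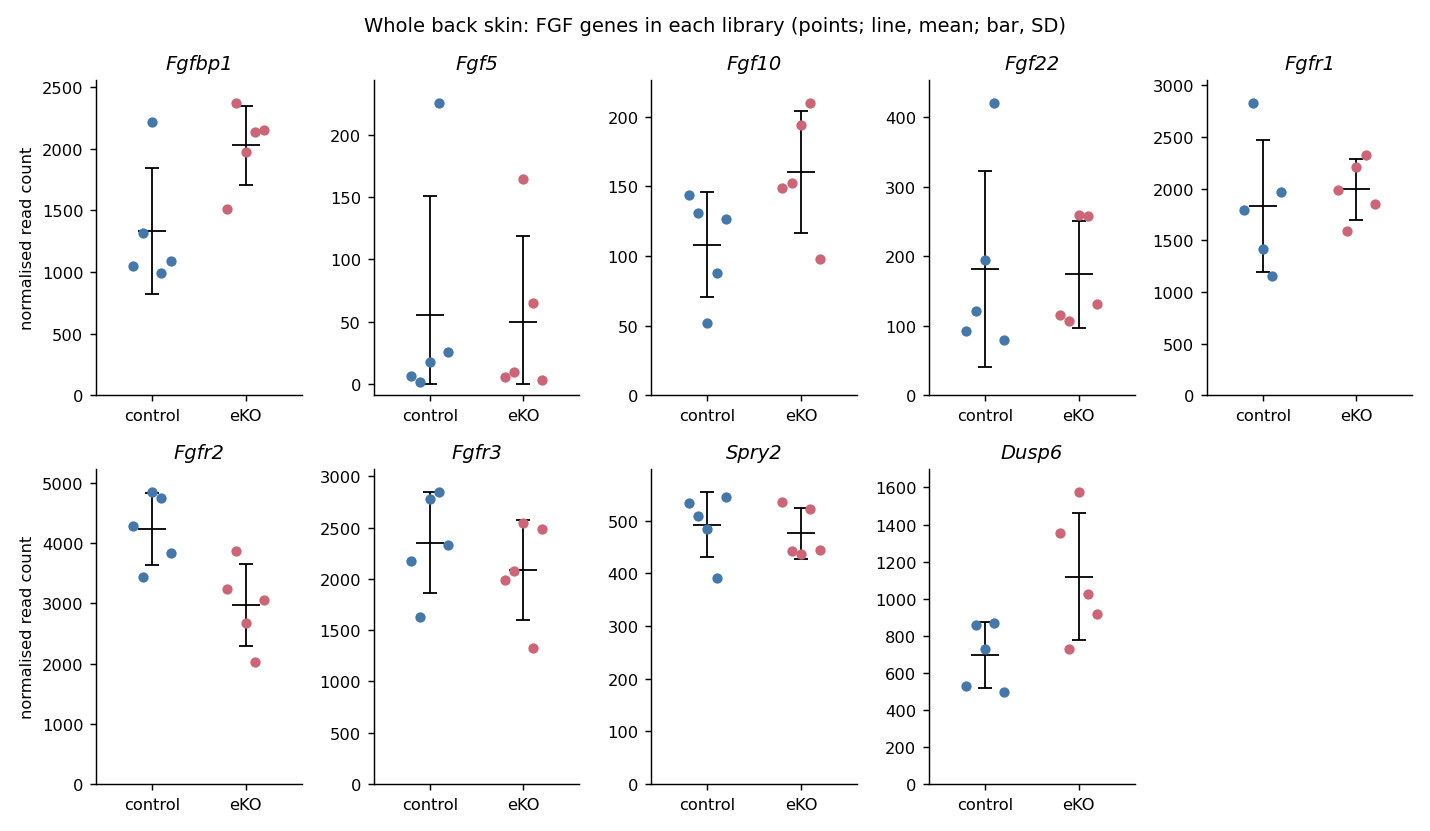
Normalised read counts of 9 FGF genes in whole back skin, one point per library, lines at the means and bars of 1 SD, cut at 0 where they would pass below it (5 control and 5 eKO libraries; each panel has its own axis). Every gene overlaps between the genotypes, and control replicate 4 is highest for Fgf5 (225.9) and Fgf22 (420.1).

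The pathway around these members was read from 7 further lists holding 82 genes, of which 60 were tested in HFSC and 68 in skin. In HFSC 11 rose and 4 fell, 25.0% of those tested, beside 19.4% of all genes, and the median log2 difference was 0.16 beside -0.03 for all genes. In skin none passed in limma, with 9 of 68 at an unadjusted p under 0.05, beside 2348 of all 16589 genes tested. In HFSC, edgeR gave 11 higher and 4 lower, and DESeq2 gave 13 higher and 5 lower, adding Dusp5, Sdc4 and Grb2. By edgeR none passed in skin, and DESeq2 called Fgf18, Dusp4 and Mapk3.

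The heparan sulphate list held the most calls, with 5 of 14 higher and 1 lower and a median of 0.34. Sulf1, which trims sulphate from heparan sulphate, stood at 0, 4.21 and 14.997 in control HFSC and at 122.1, 134.8 and 88.4 in eKO HFSC (log2 difference 4.71, SE 0.82, limma adjusted p 0.00146). The size of this difference rests on few control reads: it was 3.65 without control replicate 1, 5.65 without control replicate 3 and 3.61 with a pseudocount of 5. Sdc1, a heparan sulphate proteoglycan of keratinocytes, rose from 14749 ± 438 to 21073 ± 921 (SD, n = 3 each, log2 difference 0.51, limma adjusted p 1.37e-04). Sulf2, Hs6st1 and Ext1 also rose. With library size scaling in edgeR the adjusted p was 0.0523 for Sulf2 and 0.0632 for Hs6st1, and with no filter it was 0.0522 for Hs6st1 in limma. In the same list Sdc2 fell by 0.53 on the log2 scale (limma adjusted p 0.0112).

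Among 3 other ligands tested in HFSC, Fgf13, an intracellular member of the family, rose from 57.0 ± 20.8 to 132 ± 23.4 (SD, n = 3 each, limma adjusted p 0.0152). Fgf18, a ligand of the resting follicle, was 24.9, 19.99 and 23.0 in control HFSC and 10.6, 3.29 and 7.46 in eKO HFSC, with a limma adjusted p of 0.101. In skin it was 224 ± 56.5 in controls and 109 ± 44.1 in eKO (SD, n = 5 each, log2 difference -1.06, limma adjusted p 0.137). Neither Fgf18 difference passed in limma, and DESeq2 called the one in skin. Flrt2, a leucine-rich repeat membrane protein of a family that binds FGF receptors, was 2176.1, 2174.3 and 1937.6 in control HFSC and 740.7, 963.5 and 692.4 in eKO HFSC, and fell by 1.40 on the log2 scale (SE 0.13, limma adjusted p 1.08e-05).

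Targets and inhibitors did not all go the way of Spry2 and Dusp6. Of 10 other feedback inhibitors tested in HFSC, 1 rose in limma, the phosphatase Dusp7, from 314 ± 56.7 to 511 ± 24.3 (SD, n = 3 each, limma adjusted p 0.00893). The phosphatase Dusp5, called by DESeq2 but not by limma, was 14.2 ± 2.52 in controls and 43.2 ± 15.1 in eKO (SD, n = 3 each, limma adjusted p 0.0542). Of 9 response genes tested, Etv1, Phlda1 and Myc rose and Fos fell, and Etv4 and Etv5, the best known FGF response factors, had log2 differences of 0.18 and 0.20 (limma adjusted p 0.491 and 0.315). Etv1 stood at 2.99, 2.10 and 2.00 in control HFSC and at 30.3, 41.7 and 23.4 in eKO HFSC (limma adjusted p 0.00637). The minimum of 10 for testing was reached only in its eKO libraries, and with no filter the limma adjusted p was 0.0138. Of 19 adaptors and kinases, Nras rose (log2 difference 0.36, limma adjusted p 0.0240) and Araf fell by 0.38 on the log2 scale (limma adjusted p 0.0339). Without control replicate 1, Nras, Araf, Myc, Phlda1, Fos, Sulf2, Hs6st1 and Fgf13 were no longer called, and each of them was also lost without at least 2 other single libraries. Myc was lost with library size scaling (edgeR adjusted p 0.0635) and Nras with no filter (limma adjusted p 0.0515). Ext1 was lost without control replicate 2 or 3, and Sdc2 without control replicate 2.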

How the data were processed

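The members and gene lists were chosen with earlier results of these data known. The authors deposited 1 table per tissue of a signal, read counts divided by 1 size factor per library. Dividing each column by its smallest step returned whole reads within a tolerance of 0.01. Per the submitters' processing notes the build was GRCm39 for both tissues, and featureCounts and DESeq2 are named for skin only. How strand and shared reads were counted is not given in the sources used here.

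Each tissue was fitted with limma 3.58.1 with a trend on log2(value + 1), keeping genes that reached 10 in a number of libraries equal to the smaller group, with Benjamini-Hochberg adjustment at 0.05. For low genes, differences on this scale can lie below or above the ratio of the means. In HFSC, Etv1 was 9.58-fold on this scale and 13.4-fold by the means, and Sulf1 was 26.2-fold and 18.0-fold. The tissue difference was an interaction contrast in 1 fit of 4 group means, and hair relations used 100000 permutations. Alternatives were edgeR 4.0.16 and DESeq2 1.42.0 on recovered reads, library size scaling, pseudocounts of 0.5 and 5, no filter, single replicates left out, a replicate block, a hair score covariate and the 8 skin libraries with Y-linked reads. Symbols were matched for 94.1% of 55357 skin rows and 91.4% of 56953 HFSC rows. HFSC replicate numbers did not pair the libraries, as same-numbered libraries correlated at -0.06, -0.02 and -0.03 in their deviations. Promoters were taken from RefSeq for 9 of 10 members. Named genes were the members, Grk2, pathway genes that passed, with extremes per list, and the 3 genes most similar to Fgf5 and Fgfbp1. Fgf18, Etv4, Etv5, Grb2, B2m and the skin genes called by DESeq2 were named after their values were seen.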

Additional observations from a re-analysis of the deposited data

Results flagged for a closer look

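Among 20 groups of skin values, each of 1 gene in 1 genotype, 2 held a library far from the others, and about 1 in 20 groups is marked by chance. These groups share the same skin libraries and are not independent. In control skin, Fgfbp1 was highest in replicate 3 at 2217.0, and Fgf5 was highest in replicate 4 at 225.9. Replicate 4 also had the highest hair score of all, 11.85.

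Among the members and pathway genes called by limma in HFSC, leaving out Fgfbp1, the genotype effect differed between the tissues for 4 by the interaction test. The difference, HFSC minus skin, was 0.85 for Spry2 (limma adjusted p 0.018), 4.54 for Sulf1 (0.00322), 3.23 for Etv1 (0.00185) and -1.24 for Flrt2 (0.0145). Grb2, which limma did not call in HFSC (adjusted p 0.0623), also passed this test, with a difference of -0.53 (limma adjusted p 0.0433). Etv1 held 3 reads or fewer in each control HFSC library, so the size of its difference depends on the pseudocount. In HFSC, Etv1 and Sulf1 met the minimum for testing only through the eKO libraries. The HFSC libraries also differed by genotype in markers of other cell types and in Y-linked genes, and the part of these in the 4 differences was not tested.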

How the results depend on the processing

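Among the members, the calls of Spry2 and Fgfr2 in HFSC held in all 13 alternatives (limma, edgeR or DESeq2 adjusted p up to 0.0497 and 0.0171). The call of Dusp6 held in 10 of 13, and the tissue difference of Spry2 in 19 of 20. No member was called in skin in any alternative. With the replicate block, 2696 HFSC genes passed, beside 2673 without it, and no member changed its call.

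Counts over all genes moved more. Of 62 skin genes (38 higher, 24 lower), 37 passed with no filter, 31 by library size (22 higher, 9 lower), 656 by DESeq2 (332 higher, 324 lower), 144 with the hair covariate and 0 with the 8 libraries holding Y-linked reads, where 1790 had an unadjusted limma p under 0.05. Leaving out single replicates gave 10 (without eKO 1) to 57 in skin, with 14 to 23 without eKO 3, 4 or 5 or without control 1, 2, 3 or 5. It gave 1519 to 2620 in HFSC, 1519, 1541 and 1769 without control 1, 2 and 3, and 452 (without HFSC control 1) to 837 for the tissue difference. Library size scaling turned the tissue difference from 455 higher and 288 lower to 346 and 334.

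Directions turned only in comparisons that passed no test. In skin, Fgf5 became -0.16 in edgeR, -0.11 by library size and -0.18 in DESeq2, and ran from -0.70 to 0.97 with a replicate left out. Fgf22 became -0.0704 in edgeR, -0.0379 by library size, -0.0686 in DESeq2 and -0.28 with the Y-linked libraries, where Spry2 became 0.0241. It ran from -0.11 to 0.49 in skin and from -1.62 to 0.62 in HFSC with a replicate left out, and Fgfr1 in HFSC from -0.0942 to 0.0337. Tissue differences became 0.0391 for Fgf22 in edgeR and -0.0873 and -0.0772 for Fgfr2 and Fgfr3 by library size. With a replicate left out they ran from -1.74 to 0.50 for Fgf22, -0.11 to 0.13 for Fgfr2 and -0.13 to 0.14 for Fgfr3. Correlations with the hair score became -0.31 for Fgfbp1, 0.16 for Fgf10 and 0.0712 for Fgfr2 without the 2 farthest libraries, and -0.58 for Fgfbp1 and 0.11 for Fgf10 in the 6 libraries above the gap. The cause was not tested in any of these. Depth limits Fgf5 and Fgf22 in HFSC, with 2 and 88 reads over 6 libraries.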
